A study of Mus musculus with 18 samples.

Results

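The Hox genes encode the homeodomain transcription factors that give cells their position along the head-to-tail axis. All genes of the deposited table whose symbol consists of Hox, a cluster letter from a to d and a paralogue number were taken, which gave 33 Hox genes among 17198 genes in all. The GENCODE annotation of the mouse genome (GRCm38) holds 39 such genes, and the other 6 (Hoxa13, Hoxb1, Hoxb13, Hoxc12, Hoxc13 and Hoxd12) were not analysed here. Messenger RNA was measured by sequencing in 18 cultures of neurons from mouse dorsal root ganglia, which lie beside the spinal cord and carry touch and pain signals to it. The cultures came from wild-type mice (WT) or from mice heterozygous for the tm1a allele of Dynlrb1 (HET), a gene for a light chain of the motor protein cytoplasmic dynein. They had been kept for 12, 24 or 48 h, with 3 biological replicates for each genotype and time. Age, sex, strain, spinal level of the ganglia and culture conditions are not given in the sources used here.

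Mammalian Hox genes stand in 4 clusters, and members at the same place in different clusters are paralogues that share a number. Genes with low numbers are active from the hindbrain and neck backwards, and genes with high numbers only near the tail, so that the set of Hox genes a neuron expresses records the level at which it arose. Hox proteins bind DNA together with TALE homeodomain cofactors of the PBX and MEIS families, and Polycomb and Trithorax complexes keep the clusters silent or active after the embryo is patterned. In the analysed table cluster a held 10 genes on chromosome 6. Cluster b held 8 genes (chr11:96271457-96354012), cluster c 7 genes (chr15:102954427-103036852) and cluster d 8 genes (chr2:74668310-74765142), each from the first to the last gene measured. Paralogue groups 1 to 4 are called anterior below (11 genes), groups 5 to 8 central (11 genes) and groups 9 to 13 posterior (11 genes).

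The cultures carried the labelled cell type and genotype. All 12 sensory neuron markers were measured, and their summed level ran from 6260 to 9054 FPKM, a level scaled to gene length and library total. Markers of Schwann cells (472 to 688 FPKM) and fibroblasts (299 to 550.4 FPKM) were present too, so the Hox values are those of a mixed culture. In such bulk RNA, fewer cells of a type and less RNA per cell cannot be told apart. Dynlrb1 was lower in each of the HET cultures than in any WT culture of the same time, with log2 differences of -0.78, -0.86 and -0.84 at 12, 24 and 48 h. The within-group correlation across genes was 0.978 to 0.992. Sequencing depth is unknown because the deposited values had been normalized.

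For 19 of the 33 Hox genes a RefSeq promoter window was at hand, and the last 100 bases before the start site are shown for the 5 genes whose levels changed from 12 to 48 h in both genotypes. They are written 5′ to 3′ along the gene (GRCm38.p6) and are, in order, chr2:74762880-74762979, chr11:96318167-96318266, chr2:74721878-74721977, chr2:74704515-74704614 and chr6:52204588-52204687, the last on the minus strand and the others on the plus strand. Capitals mark the letters of a CCAAT box (CCAAT, or ATTGG where it lies on the opposite strand). They also mark those of a TATA box (TATAAA, or TTTATA on the opposite strand).
Hoxd1: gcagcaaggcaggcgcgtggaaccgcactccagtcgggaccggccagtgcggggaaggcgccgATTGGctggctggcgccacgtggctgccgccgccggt
Hoxb4: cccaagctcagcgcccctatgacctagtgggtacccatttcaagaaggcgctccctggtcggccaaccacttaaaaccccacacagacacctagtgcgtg
Hoxd4: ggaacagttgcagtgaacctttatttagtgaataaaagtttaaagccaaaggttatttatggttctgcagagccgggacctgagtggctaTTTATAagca
Hoxd8: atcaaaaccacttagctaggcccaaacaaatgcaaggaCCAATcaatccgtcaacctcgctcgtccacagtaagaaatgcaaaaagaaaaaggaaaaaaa
Hoxa5: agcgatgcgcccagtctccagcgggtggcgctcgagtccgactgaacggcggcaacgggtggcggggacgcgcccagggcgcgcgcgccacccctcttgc

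The stretch before Hoxd1, the gene that fell, was 75.0% G or C. Those before the genes that rose had 76.0% (Hoxa5), 58.0% (Hoxb4), 40.0% (Hoxd8) and 39.0% (Hoxd4). The CCAAT box of Hoxd1 began 37 bases before the start of transcription, and that of Hoxd8 began 62 bases before it. The TATA letters before Hoxd4 lay on the opposite strand and began 10 bases before the start. Whether they act as a TATA box was not tested. Over 250 bases before the start and on both strands, a CCAAT box was found for 11 of the 19 Hox genes and in 33.8% of 32851 promoters. A GC box (GGGCGG) was found for 9 of the 19 and in 32.7% of promoters, and TATAAA for 4 and in 12.4%. The letters TGATNNAT, a site form for a HOX-PBX pair, were found for 3 of the 19 (Hoxa2, Hoxb8 and Hoxd11) and in 7.68%, and the AP-1 letters TGANTCA for 1 (Hoxd11) and in 6.75%. A Hox gene counted if any of its windows matched (21 windows for the 19 genes), whereas the percentages are shares of single windows. Matches are letters only, and binding was not measured.

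Per length, Hoxd8 stood far above the other Hox genes, and the family was spread over the whole axis. Mean levels over the 18 cultures ran from 0.0614 FPKM for Hoxd13, which patterns digits and genitalia, to 19.8 FPKM for Hoxd8, a trunk gene. Hoxd8 had a lowest, median and highest culture of 14.99, 17.3 and 28.2 FPKM. Hoxa9 followed at 5.12, 7.66 and 11.6 FPKM. Hoxa7 lay at 6.21, 7.49 and 9.05 FPKM, so its range fell inside that of Hoxa9. Hoxd1, the most anterior gene of its cluster and known in mice from pain-sensing neurons, lay at 4.04, 6.61 and 12.9 FPKM, the widest range of these genes relative to its median. Hoxd9 had 3.53, 4.83 and 6.72 FPKM and Hoxa10 had 3.79, 5.03 and 6.01 FPKM, and their order depended on whether the mean or the median was used. Thus Hoxd8 lay above the other genes in every culture. Among the 5 genes after it, neighbours in the order of the mean overlapped in range, whereas Hoxa7 and Hoxa10 did not overlap.

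Level did not follow paralogue number. Spearman's rho between paralogue group and mean FPKM was 0.04 across the 33 genes, which are neighbours on shared chromosomes and no independent points. The median gene had 1.66 FPKM among anterior genes, 3.11 FPKM among central genes and 2.93 FPKM among posterior genes. Of the summed Hox level, central genes made up 46.6%, posterior genes 30.5% and anterior genes 23.0%. By cluster, d made up 38.3%, a 27.9%, b 19.8% and c 13.98%. Paralogues of 1 number differed widely: group 8 held both Hoxd8 (mean 19.8 FPKM) and Hoxb8 (0.454 FPKM). At the posterior end the level fell from group 10 (Hoxa10 4.87, Hoxd10 3.00 and Hoxc10 2.30 FPKM) to group 11 (Hoxd11 1.29, Hoxc11 1.26 and Hoxa11 0.174 FPKM). The strand setting of the counting is not given. Of the exon bases of Hoxa11, 35.0% lie opposite those of the noncoding gene Hoxa11os, so reads of the pair cannot be told apart there. The same limit holds for other Hox genes. Among them are Hoxb3 (52.9%, opposite Hoxb3os), Hoxb2 (27.3%, Hoxb3os), Hoxa7 (20.4%, Hoxaas3) and Hoxa4 (16.0%, Gm29430).

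**Figure D1:**
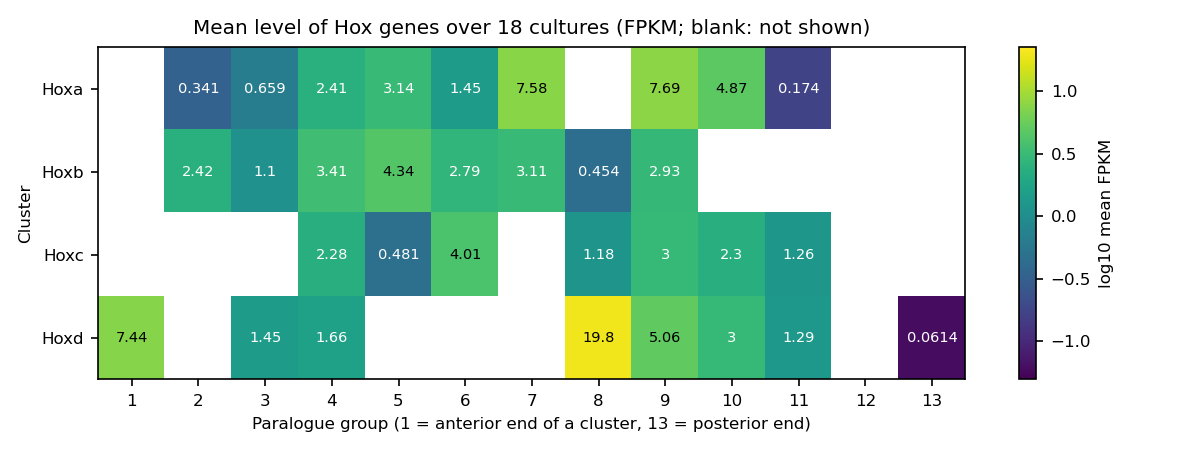
Mean level of 32 of the 33 Hox genes over 18 cultures in FPKM, with clusters as rows and paralogue groups as columns (colour on a log10 scale, blank where no value is shown). Hoxd8 is highest at 19.8 FPKM and Hoxd13 lowest at 0.0614 FPKM, and no gradient runs along the columns.

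In WT cultures, Hox genes from all parts of the clusters gained RNA between 12 and 48 h, while Hoxd1 and Hoxb5 lost it. Of the 33 genes, 15 rose and 2 fell at an adjusted p under 0.05 (limma with Benjamini-Hochberg adjustment over all genes), together 17. Time changed much of the transcriptome: 47.1% of all genes passed the same test, 30.0% as higher and 17.1% as lower. The share of Hox genes that passed was thus near that of all genes. The median log2 fold change was 0.51 for Hox genes and 0.11 for all genes, and 29 of the 33 Hox genes had a positive value against 57.7% of all genes. With the authors' other adjusted columns, which put the median of all genes at 0.01, 11 Hox genes rose and 2 fell (46.2% of all genes called, 24.3% as higher and 21.9% as lower) and the Hox median was 0.40. Groups did not overlap for 13 Hox genes on the higher side, against 34.6% of all genes, and for 2 on the lower side, against 20.7%. Without replicate 2 of WT at 48 h, 10 Hox genes passed, and likewise 10 without replicate 2 of WT at 12 h (35.1% and 40.9% of all genes).

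Hoxd1 fell furthest of all the Hox genes. Its normalized counts, here and below in the order of the replicate numbers, were 923, 905 and 676 in WT at 12 h, 420.2, 395 and 559 at 24 h and 366, 338 and 313 at 48 h. Every later WT culture was below every 12 h culture. The log2 fold change was -1.29 ± 0.21 (SE, n = 3 per group) at 48 h against 12 h (limma, adjusted p 0.000208) and -0.87 ± 0.21 at 24 h against 12 h (limma, adjusted p 0.0374). In HET, Hoxd1 had 980.4, 994 and 614 normalized counts at 12 h, 373, 626 and 439 at 24 h and 466, 556 and 409 at 48 h. HET cultures of 24 h overlapped those of 12 h, and those of 48 h lay below them. The HET log2 fold change was -0.85 ± 0.21 at 24 h (limma, adjusted p 0.0124) and -0.83 ± 0.21 at 48 h (limma, adjusted p 0.0227).

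The noncoding gene Haglr starts 84 bases from the Hoxd1 start and runs the other way (chr2:74748422-74762896, minus strand), and one of its exons reaches into the promoter stretch printed above for Hoxd1. Haglr shares no exon base with Hoxd1, and it fell with it. Its normalized counts in WT were 243, 247 and 160.5 at 12 h and 84.4, 65.7 and 50.1 at 48 h. In HET they were 230.1, 266 and 169 at 12 h and 103, 116 and 136 at 48 h. The log2 fold change was -1.69 ± 0.28 in WT (limma, adjusted p 0.000196) and -0.88 ± 0.28 in HET (limma, adjusted p 0.0444). It was 1 of 5 measured noncoding genes of the clusters, of 23 listed, and the other 4 did not pass in either genotype.

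All 4 members of paralogue group 4, the genes of the neck and upper trunk, rose in WT. Hoxb4 had normalized counts of 251, 256 and 237 at 12 h, 374, 301 and 347 at 24 h and 568, 705 and 435 at 48 h. Each step was complete, with no overlap between successive times. Hoxc4 had 136, 149 and 129 at 12 h, 162, 156 and 167 at 24 h and 338, 327 and 224 at 48 h. Hoxd4 had 142, 94.3 and 138 at 12 h, 190.3, 147 and 170.3 at 24 h and 237, 301 and 305 at 48 h. All WT cultures of 48 h lay above all of 24 h for both genes. Hoxa4, named after its values were seen to complete the group, had 149, 102 and 126 at 12 h, 107, 121 and 175 at 24 h and 173, 263 and 203 at 48 h. Log2 fold changes at 48 h against 12 h were 1.18 ± 0.22 for Hoxd4, 1.17 ± 0.20 for Hoxb4, 1.07 ± 0.20 for Hoxc4 and 0.75 ± 0.26 for Hoxa4. Their adjusted p-values in limma were 0.000423, 0.000239, 0.000474 and 0.0257. On the same strand Hoxd4 shares 388 exon bases with Hoxd3, which rose as well (log2 0.997 ± 0.29), and the gene model Gm28230 covers 39.1% of the exon bases of Hoxd4 and 53.1% of those of Hoxd3. The split of reads between them is uncertain.

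Other anterior and central genes rose in WT, and Hoxb5 fell. Hoxa3, which is needed for the thymus and parathyroid, went from 43.2, 70.4 and 41.9 normalized counts at 12 h to 132, 171 and 107 at 48 h (log2 1.39 ± 0.37, limma adjusted p 0.0053). Hoxa5, which acts in the neck and lung, went from 178, 192 and 206 to 346, 440.4 and 311 (log2 0.91 ± 0.22, limma adjusted p 0.00262). Hoxd8, the most abundant member, went from 1161, 1043 and 1209.9 to 1819.7, 1901 and 1961 (log2 0.74 ± 0.13, limma adjusted p 0.000239). The groups did not overlap for any of these genes, and 24 h values of Hoxd8 (1176, 1134 and 1369) overlapped those of 12 h. Hoxb5, a gene of neural crest derivatives, went the other way, from 459, 479.7 and 329 to 289, 250.4 and 253 (log2 -0.66 ± 0.20, limma adjusted p 0.0124). Of the 8 genes of cluster b, Hoxb4 passed as higher. In cluster a 6 of 10 genes passed as higher, in cluster c 4 of 7 and in cluster d 4 of 8, against 30.0% of all genes, and differences between clusters were not tested.

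Among posterior genes, 4 of 11 rose in WT and 0 fell, and the largest folds came from genes near the lower end of measurement. With 30.0% of all genes higher, that count was near the background. Hoxa11, a gene of the forearm and lower spine, had 12.2, 7.41 and 5.02 normalized counts at 12 h and 45.8, 21.1 and 36.4 at 48 h. Hoxd13 had 4.64, 2.14 and 1.52 at 12 h and 12.6, 10.3 and 5.75 at 48 h. The 48 h cultures lay above the 12 h cultures for both. The log2 fold changes were 1.95 ± 0.50 for Hoxa11 (limma, adjusted p 0.00452) and 1.51 ± 0.44 for Hoxd13 (limma, adjusted p 0.00925). Both had fewer than 50 counts in every culture, and adding 1 before the logarithm makes such folds smaller. The other posterior genes that rose were Hoxc9 and Hoxa9, genes of thoracic level, by 0.78 ± 0.26 and 0.58 ± 0.21 on the log2 scale. None of the 3 genes of group 10 passed (lowest adjusted p 0.171). The anterior median of 0.89 was above the central (0.37) and posterior (0.42) medians in WT, while Spearman's rho of log2 fold change with paralogue group was -0.12 over the 33 genes.

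**Figure D2:**
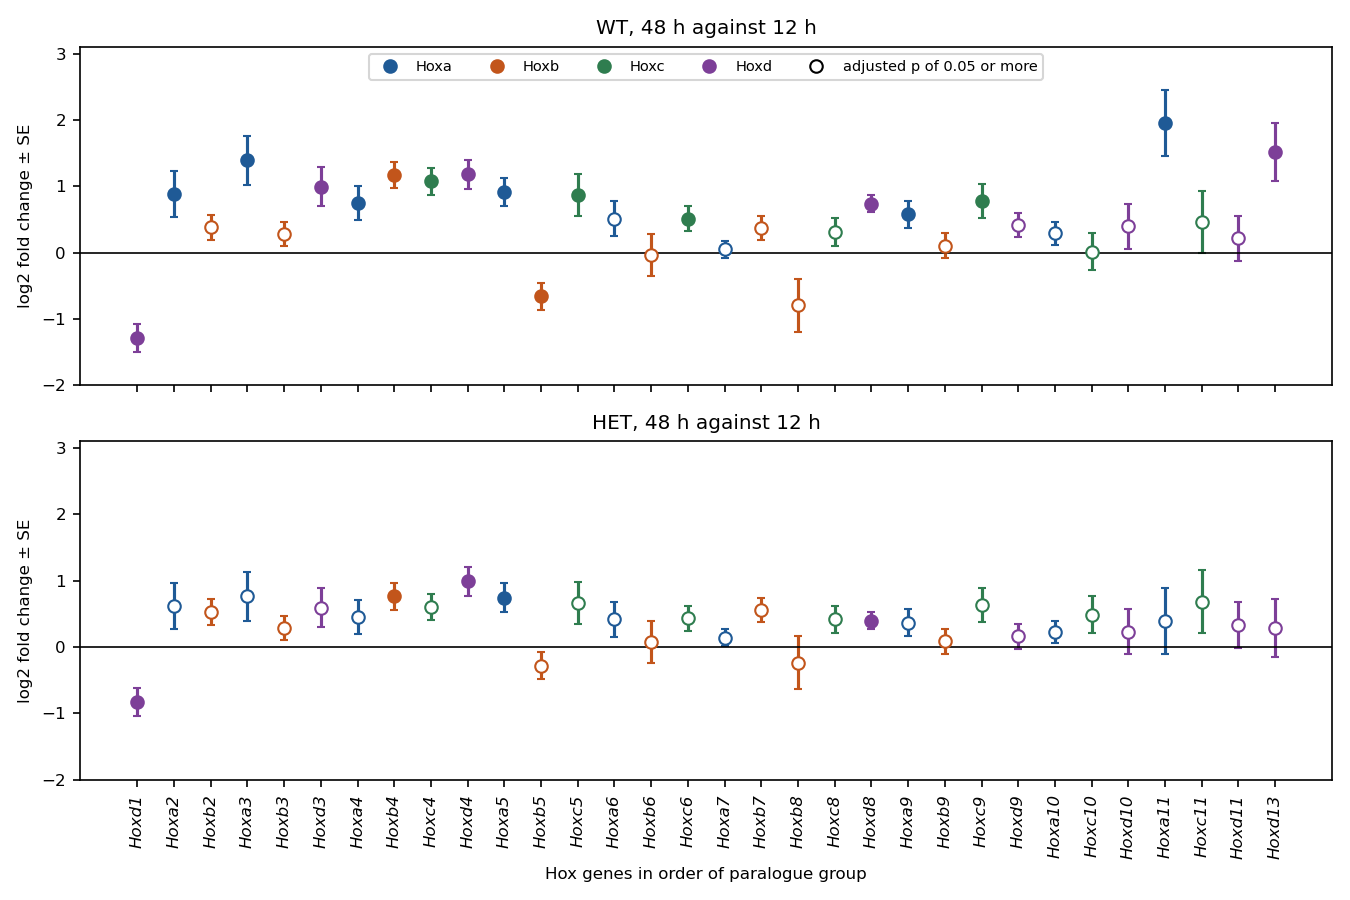
Log2 fold change with SE at 48 h against 12 h for 32 of the 33 Hox genes in order of paralogue group, in WT (upper panel) and HET (lower panel), coloured by cluster and filled where the adjusted p is under 0.05. In WT 17 genes are filled and in HET 5, and Hoxd1 lies lowest in both panels at -1.29 and -0.83.

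HET cultures gave nearly the same signs as WT, with 5 Hox genes past the threshold. At 48 h against 12 h, 4 Hox genes rose and 1 fell, against 14.2% of all genes called, 10.6% as higher and 3.62% as lower. The 5 genes (Hoxd4, Hoxb4, Hoxa5, Hoxd8 and Hoxd1) were all among the 17 of WT, which makes all of the HET list and 29.4% of the WT list. The Hox median was 0.42 against 0.10 for all genes, and 30 of 33 Hox genes were positive against 62.5% of all genes. WT and HET were separate cultures, and 32 of the 33 Hox genes had the same sign in both. The HET log2 fold changes were 0.99 ± 0.22 for Hoxd4, 0.76 ± 0.20 for Hoxb4, 0.74 ± 0.22 for Hoxa5 and 0.40 ± 0.13 for Hoxd8, with limma adjusted p-values of 0.0152, 0.0233, 0.0333 and 0.044. Hoxc4 reached 0.60 ± 0.20 with an adjusted p of 0.0527 in limma. HET cultures of 48 h lay wholly above those of 12 h for 11 Hox genes, against 21.6% of all genes, and wholly below for 1, against 8.12%.

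One HET culture of 48 h, replicate 3, stood below the other members of its group for most Hox genes. Hoxd4 had 94.3, 97.7 and 156 normalized counts in HET at 12 h and 257, 239 and 184 at 48 h. Hoxb4 had 224, 205 and 272 at 12 h and 425, 497 and 289 at 48 h. Hoxa5 had 187, 178 and 187 at 12 h and 444, 334 and 199 at 48 h. The last value of each 48 h series, that of replicate 3, was the lowest of its group and still above the 12 h cultures. Hoxd8 had 1155, 1171 and 1170.4 at 12 h and 1657, 1818 and 1201 at 48 h. In that culture 0 of 11 anterior genes and 1 of 11 central genes lay above the group mean, and the median anterior deviation was -0.50 on the log2 scale. Without it, 12 Hox genes rose and Hoxd1 fell in HET (28.4% of all genes called, 19.8% as higher), and 11 of these 13 were among the 17 of WT; the 2 further genes were Hoxb2 and Hoxb7. Without HET replicate 1 or 2 of 48 h or replicate 2 of 12 h, 0 Hox genes and 0% of all genes passed in limma, and without replicate 1 of 12 h, 1 Hox gene passed (6.53% of all genes).

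Markers of dividing cells rose between 12 and 48 h too. All 6 listed genes (Mki67, Top2a, Ccnb1, Cdk1, Birc5 and Mcm2) rose in WT from 12 to 48 h and 5 of 6 in HET. Their summed level was 5.07 to 6.20 FPKM in WT at 12 h and 16.5 to 28.1 FPKM at 48 h. In HET it was 4.37 to 5.22 FPKM at 12 h, and 20.4, 15.1 and 6.18 FPKM in replicates 1, 2 and 3 at 48 h. At 24 h the sum was 5.38 to 6.36 FPKM in WT and 5.73 to 6.96 FPKM in HET. None of the 6 genes passed at 24 h against 12 h in either genotype. The culture with low Hox values, replicate 3, thus had the lowest dividing-cell sum of its group. It also had the highest neutrophil sum, 65.9 FPKM against 5.68 and 7.53 FPKM, and the highest satellite glia sum, 304 FPKM against 234 and 274 FPKM. Of 10 fibroblast markers 4 rose and 3 fell in WT (324 to 550.4 FPKM summed at 12 h, 336 to 452 at 48 h). Of 6 satellite glia markers 1 rose and 3 fell (452 to 619.5 FPKM at 12 h, 228 to 249.7 at 48 h), and the summed macrophage level rose from 19.6 to 27.1 FPKM to 46.0 to 87.8 FPKM with 2 of 7 genes higher and 1 lower. In WT, 3 of 12 sensory neuron markers rose and 6 fell, 1 of 10 Schwann cell markers rose and 3 fell, 3 of 7 endothelial markers fell and all 4 measured neutrophil markers (S100a8, S100a9, Ngp and Ltf) fell. Of all genes 30.0% rose and 17.1% fell in WT and 10.6% rose in HET, so several of these counts were near the background. No value in the table was 0. The part of these cell types in the Hox changes was not tested.

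At 24 h few Hox genes had changed. In WT, Hoxd1 alone passed, against 3.62% of all genes (2.96% as higher, 0.657% as lower). With any 1 of the 6 compared cultures left out, Hoxd1 no longer passed, and calls were lost among all genes too. Of all genes 0% passed without replicate 2 of 12 h or without any 1 culture of 24 h. Without replicate 1 of 12 h 1.15% passed, and without replicate 5 of 12 h 0.494%. In HET, Hoxb4, Hoxc4 and Hoxb7 rose and Hoxd1 fell, against 18.9% of all genes (13.1% higher, 5.76% lower). Hoxb4 in HET went to 439.9, 344 and 367 normalized counts at 24 h (log2 0.72 ± 0.20, limma adjusted p 0.0196). Hoxc4 went from 133, 125 and 130.3 to 219.8, 171 and 206 (log2 0.61 ± 0.20, limma adjusted p 0.0429). Hoxb7, a trunk gene, went from 101, 132 and 124 to 155, 167 and 205 (log2 0.56 ± 0.18, limma adjusted p 0.0388). For all 3 genes each 24 h culture exceeded each 12 h culture. Such a complete gap upwards was seen for 10 Hox genes in HET (25.4% of all genes) and 3 in WT (18%), and downwards for 1 in HET (13%) and 1 in WT (8.94%). The HET count fell to 0 without replicate 2 of 12 h or replicate 1 of 24 h (6.63% and 10.9% of all genes), to 1 without replicate 1 of 12 h (15.4%) and to 2 without replicate 5 of either time (16.0% and 10.7%). WT and HET results of 24 h and 48 h share their 12 h cultures.

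**Figure D3:**
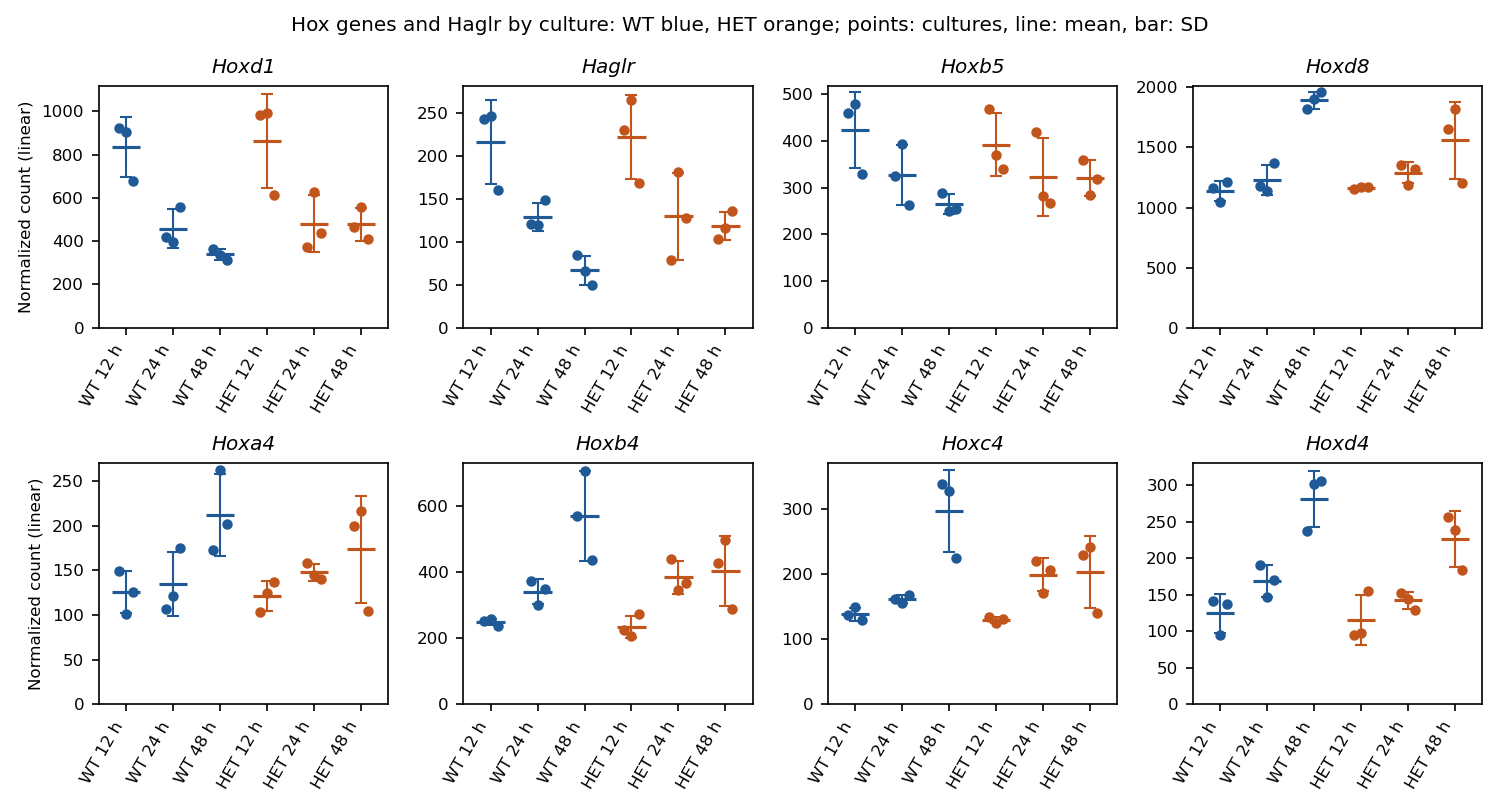
Normalized counts (linear axis from 0) of 7 Hox genes and Haglr in each culture by genotype and time, with points for cultures, a line for the mean and a bar for the SD of 3 cultures. Hoxd1 and Haglr are highest at 12 h in both genotypes, Hoxa4, Hoxb4, Hoxc4 and Hoxd4 are highest on average at 48 h, and 1 HET culture of 48 h lies near the 12 h level of Hoxd8.

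Between genotypes no Hox gene passed at any time without the replicate number as a block, and with it Hoxb4 (adjusted p 0.0253) and Hoxc4 (adjusted p 0.0271) passed in limma as lower in HET at 48 h. Without the block the counts in limma were 0 at 12 h, 24 h and 48 h, where 0.00581%, 0.00581% and 0% of all genes passed. They were also 0 for the average over times (0.0174%, with 0.0116% higher) and for the difference between genotypes in the change from 12 to 48 h (0%). At an unadjusted p under 0.05 there were 3 Hox genes at 12 h (8.41% of all genes), 0 at 24 h (1.15%), 7 at 48 h (22.0%), 2 for the average (13.5%) and 1 for the difference in change (8.92%). The authors' deposited table likewise held 0 Hox genes at an FDR under 0.05 at each time, with 5.98% of all genes past it at 48 h. The intervals differed in width between genes. For Hoxd8 the 95% interval of the log2 difference at 48 h ran from -0.57 to -0.04, and for Hoxa11 that of the difference in change ran from -3.06 to -0.06 around -1.56 (limma, adjusted p 0.548).

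The genes with the lowest p differed from time to time. At 12 h it was Hoxd13, with 9.74, 5.60 and 6.07 normalized counts in HET against 4.64, 2.14 and 1.52 in WT (log2 1.16 ± 0.44, limma adjusted p 0.577). At 24 h it was Hoxb7, with 155, 167 and 205 in HET against 158, 139 and 137 in WT (log2 0.27 ± 0.18, limma adjusted p 0.99995). At 48 h it was Hoxc4, with 228, 241 and 139.5 in HET against 338, 327 and 224 in WT (log2 -0.56 ± 0.20, limma adjusted p 0.119). Of these 3, only Hoxd13 had groups that did not overlap, at a level of a few counts. Groups did not overlap for 2 Hox genes upwards and 1 downwards at 12 h (7.07% and 8.0% of all genes), and for 1 each way at 24 h (2.81% and 2.79%). Over all times it was Hoxb9, a gene of thoracic level. Its counts were 249, 276 and 242 in HET against 420.2, 397 and 267 in WT at 12 h, 395, 328 and 319.7 against 386, 379 and 280.4 at 24 h, and 302, 257 and 257 against 454, 405 and 300.3 at 48 h. The averaged log2 difference was -0.32 ± 0.11 (limma, adjusted p 0.310), and the genotypes overlapped at each time.

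At 48 h the Hox values of HET leaned to the low side. Of 33 Hox genes 25 were lower in HET, with a median of -0.23 against -0.03 for all genes. Among all genes too, more had groups wholly lower in HET (14.4%) than wholly higher (9.57%), and their share below 0 is not given here. Without HET replicate 3 the Hox median was -0.04. Same-numbered cultures of 48 h deviated together, and in the blocked fit the log2 difference was -0.50 ± 0.13 for Hoxb4 and -0.56 ± 0.15 for Hoxc4. In that fit 12.3% of all genes passed, 5.04% as higher and 7.29% as lower. Without WT replicate 3 of 48 h, 1 Hox gene passed without the block (5.41% of all genes). Hoxd1 and Hoxd8, named after their values were seen, were the only Hox genes of 48 h whose groups did not overlap. Hoxd1 was higher in HET (466, 556 and 409 against 366, 338 and 313) by 0.48 ± 0.21 (limma, adjusted p 0.198), and Hoxd8 was lower (1657, 1818 and 1201 against 1819.7, 1901 and 1961) by -0.30 ± 0.13 (limma, adjusted p 0.173). Of all genes 9.57% did not overlap on the higher side and 14.4% on the lower side.

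**Figure D4:**
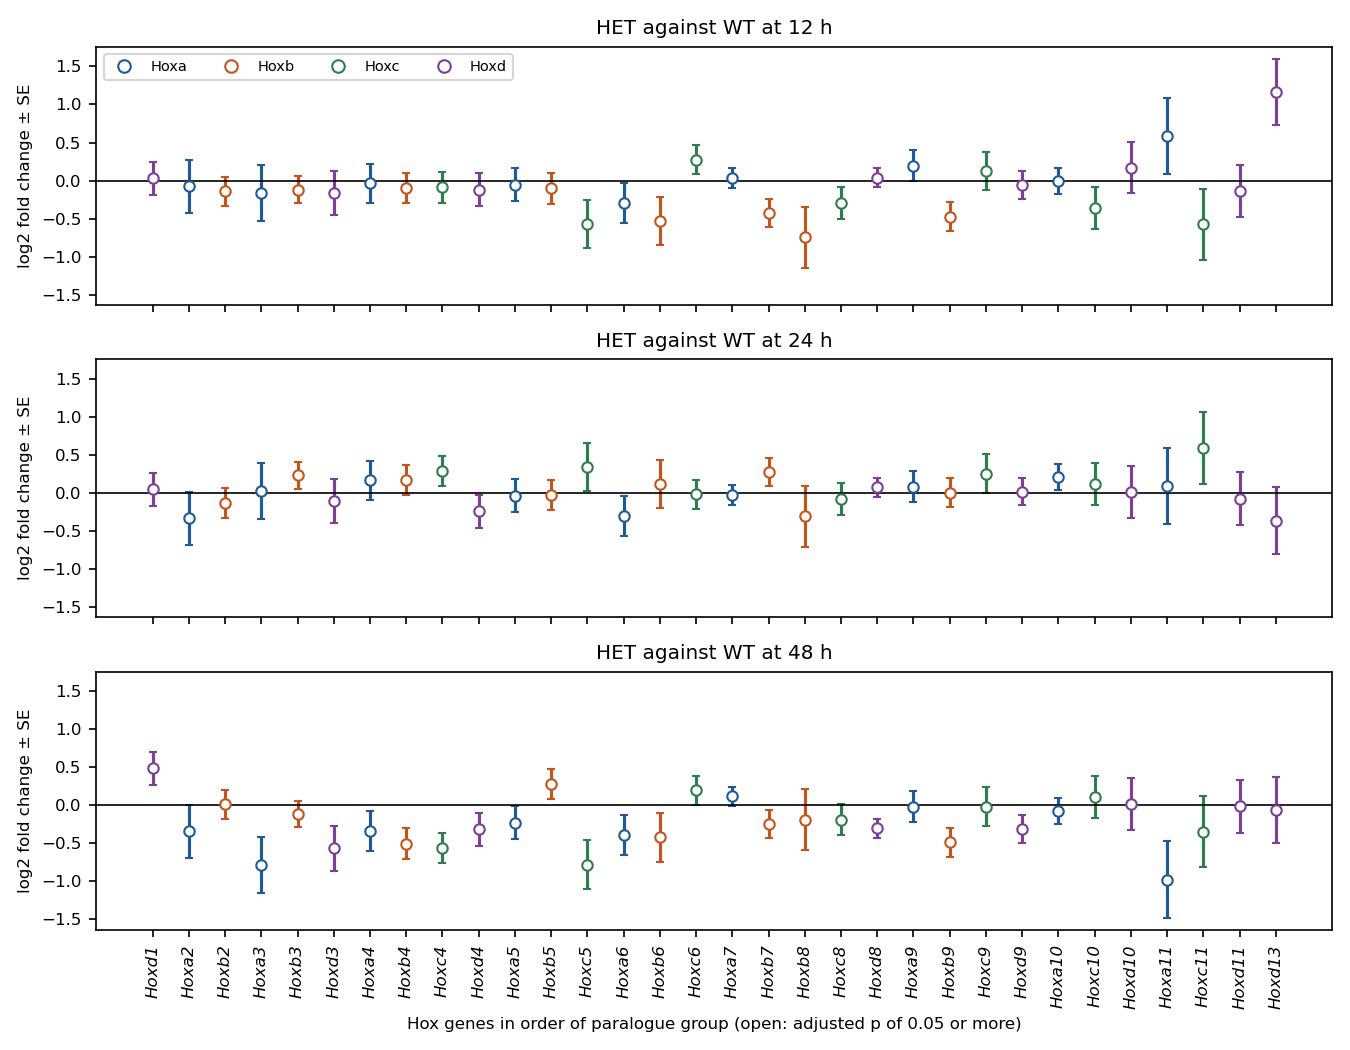
Log2 difference between HET and WT with SE for 32 of the 33 Hox genes at 12, 24 and 48 h, in order of paralogue group and coloured by cluster. All points are open because no adjusted p is under 0.05 in the fit without the replicate block, and at 48 h 25 of the 32 points lie below 0.

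Hox genes of the posterior end varied together from culture to culture within groups. For the 6 genes of paralogue groups 10 and 11, deviations from the group mean had a mean pairwise r of 0.58 over the 18 cultures, against 0.03 for pairs of all genes of the table. It was 0.53 for the 4 genes of group 4, 0.44 for all posterior genes, 0.31 for anterior and 0.29 for central genes. By cluster it was 0.45 for c, 0.33 for b, 0.25 for a and 0.18 for d. These r values are descriptions without a test. The group 4 value includes HET replicate 3 of 48 h, where all 4 genes lay well below the group mean. Their log2 deviations there were -0.65 (Hoxa4), -0.45 (Hoxb4), -0.50 (Hoxc4) and -0.28 (Hoxd4), and r without that culture was not computed. The 6 genes of groups 10 and 11 had a median SD within groups of 0.47 on the log2 scale, against 0.22 for all genes. In WT replicate 1 they were all above the group mean at 12, 24 and 48 h, with median deviations of 0.60, 0.28 and 0.51. In WT replicate 2 all 6 were below it at 12 h (median -0.20) and at 48 h (-0.67), and so they were in WT replicate 5 at 12 h (-0.33) and at 24 h (-0.44). WT replicate 2 of 24 h had 3 of 6 above and WT replicate 3 of 48 h had 4 of 6. HET cultures had medians from -0.20 to 0.20. In HET replicate 5 of 12 h all 6 were above the group mean (median 0.20). HET replicate 1 had 2 of 6 above at 12 h (-0.15) and 1 of 6 at 24 h (-0.20). Anterior genes of the WT cultures in which all 6 lay on 1 side had medians between -0.07 and 0.17. The labels do not give the ganglia or animals that went into each culture, and whether these differed was not tested.

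**Figure D5:**
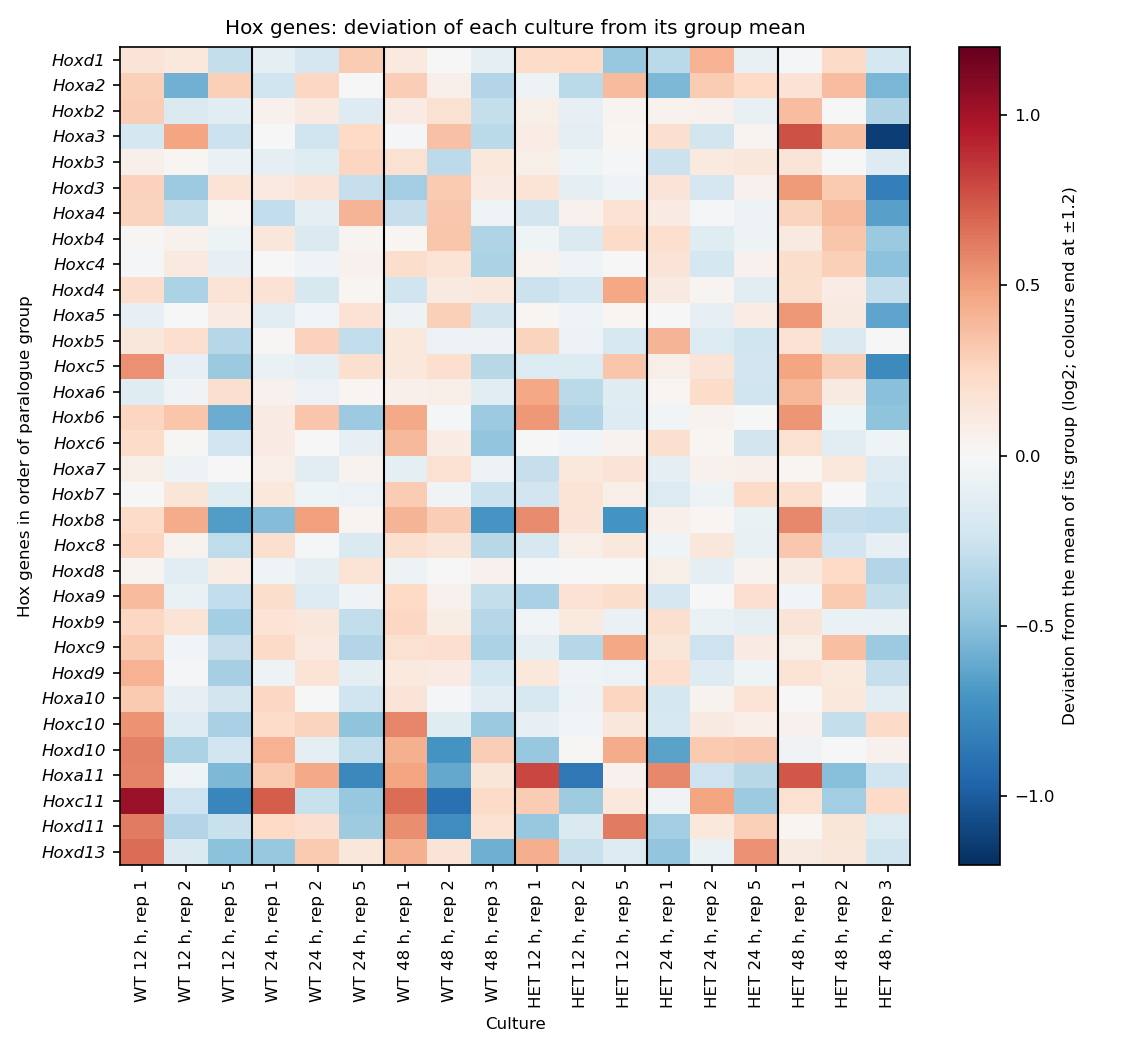
Deviation of each of 18 cultures from the mean of its group on the log2 scale for 32 of the 33 Hox genes in order of paralogue group (red above, blue below, colours ending at ±1.2). The lowest rows are red in WT replicate 1 of 12 h and 48 h, and the upper rows are blue in HET replicate 3 of 48 h.

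The partners and regulators of Hox genes changed in WT as follows, from lists chosen with earlier results of these data known. Of 12 TALE cofactors 4 rose and 1 fell from 12 to 48 h. Pbx3, Meis1, Meis3 and Pbx2 rose by 1.12, 0.92, 0.74 and 0.29 on the log2 scale, and Meis2 fell by 0.75 (limma, adjusted p 0.00014, 0.000175, 0.000125, 0.0105 and 0.0136). In HET 2 of 12 rose, Meis1 by 0.58 and Meis3 by 0.45. The median of the 12 was 0.33 in WT and 0.24 in HET. With 30.0% of all WT genes higher, the count of 4 of 12 was near the background.

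Of 30 Polycomb genes, which encode the repressors of silent Hox clusters, 11 rose and 4 fell in WT, and 2 rose in HET. Of all genes 30.0% rose and 17.1% fell in WT and 10.6% rose in HET, so these counts were near or below the background. The 4 that rose most in WT were Phf19 (1.41), Phc1 (1.18), Cbx8 (0.98) and Pcgf2 (0.78), on the log2 scale, and the 4 that fell were Rybp (-0.66), Pcgf5 (-0.41), Cbx6 (-0.40) and Phf1 (-0.31). The Trithorax and H3K27 demethylase list, the opposing activators, had 15 of 16 genes measured, of which 3 rose and 5 fell in WT. The H3K27 demethylase gene Kdm6b (-1.66) and the H3K4 methyltransferase genes Setd1b (-1.31), Kmt2d (-1.21) and Kmt2a (-0.89) fell most, and Rbbp5 (0.61), Men1 (0.41) and Dpy30 (0.30) rose. The WT cultures of 12 h varied widely for Kmt2d (normalized counts with mean 5195 and SD 3689) and Kmt2a (mean 6326 and SD 3247). In HET 1 of the 15, Rbbp5, rose by 0.35 and 0 fell. The HET median log2 fold change was 0.10 for the Polycomb list and -0.01 for the Trithorax list. The median log2 fold change in WT was 0.16 for the Polycomb list and -0.31 for the Trithorax list, against 0.11 for all genes.

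Of 18 measured cluster neighbours and upstream axial regulators (25 listed), 9 rose and 0 fell in WT, and 5 rose in HET, against 30.0% of all genes higher in WT and 10.6% in HET. Those that rose most in WT were the retinoic acid hydroxylase genes Cyp26b1 (2.33) and Cyp26a1 (1.27), the replication licensing inhibitor gene Gmnn (1.65) and Skap2 (0.93), which lies beside cluster a. Of 13 measured positional homeobox genes of other families (18 listed), 7 rose in WT against the same 30.0%, led by Six2 (2.11), En1 (2.04), Dlx2 (1.94) and Pitx1 (1.77), each at a mean under 1 FPKM. Between genotypes at 48 h no gene of these lists passed. En2 is a gene of the midbrain and hindbrain border. The signal assigned to it was higher in HET at 12 h by 3.33 ± 0.42 (limma, adjusted p 0.00648). Over all times it was higher by 2.16 ± 0.24 (limma, adjusted p 0.000641), at a mean of 0.175 FPKM. Whether this signal came from the En2 gene itself was not tested.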

How the data were processed

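One deposited table of 17198 genes in 18 cultures was used. Per the file headers, its columns hold the authors' normalized counts (a signal with column totals from 41509705 to 41509874), deposited FPKM, further adjusted signal columns, and the authors' log2 ratios, p-values and a rank score, the last not used. The submitters' processing notes name CASAVA 1.8.2, edgeR and mm10. Aligner, counting, annotation and strand setting are not given in the sources used here. Of 17 possible directions between cultures, 15 were left in the adjusted columns, so the test counts too many degrees of freedom. Sequencing depth is unknown, and no count interval was computed.

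Values were tested as log2(normalized count + 1), which understates changes of low genes, with limma 3.58.1 in R 4.3.3: lmFit with 1 coefficient for each genotype and time, contrasts, and eBayes with a trend (12 residual and 5 prior degrees of freedom). The filter, a mean of at least 1, removed 0 genes. P-values were adjusted by Benjamini-Hochberg over all 17198 genes in each of 9 comparisons at a threshold of 0.05, and all p-values are two-sided. The script was tested on simulated data. FPKM compares levels between genes. Counts of groups that do not overlap use all cultures.

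Replicate numbers come from the titles. Same-numbered WT and HET cultures of 48 h deviated together (r 0.32, 0.21 and 0.46 across genes), and those of 12 and 24 h not in every pair (lowest 0.03 and -0.21). The block on the number was therefore tried beside the main design, as were other columns, quantile scaling, pseudocount, filters, removed directions and leaving out each culture. Members and lists were chosen with earlier results of these data known. Named with values in each culture were the 6 most abundant Hox genes, up to 6 called genes with the largest change per direction and comparison, and the gene with the lowest p where none was called. Coordinates are from GENCODE M21 (GRCm38) and promoters from RefSeq (GRCm38.p6). A gene of the family and a gene of another list are counted but not reported singly here.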

Additional observations from a re-analysis of the deposited data

Results flagged for a closer look

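Several Hox genes moved in opposite directions in a pair of comparisons, with every culture of the later or HET group on 1 side of the mean of its reference in the first comparison and on the other side in the second. These differences were not tested, and each group held 3 cultures. From 12 to 24 h, Hoxb6 had a log2 change of -0.47 in WT and 0.17 in HET, Hoxb7 -0.14 and 0.56, and Hoxd13 0.85 and -0.67.

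For HET against WT, the log2 difference at 12 h and at 24 h was -0.53 and 0.11 for Hoxb6, -0.43 and 0.27 for Hoxb7, and -0.09 and 0.29 for Hoxc4. It was -0.57 and 0.34 for Hoxc5 and -0.57 and 0.59 for Hoxc11. At 24 h and at 48 h it was 0.17 and -0.50 for Hoxb4, 0.27 and -0.25 for Hoxb7, and 0.29 and -0.56 for Hoxc4. It was 0.34 and -0.78 for Hoxc5 and 0.59 and -0.35 for Hoxc11. Both sets use the same 24 h cultures. No genotype difference of these genes passed in limma without the replicate block.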

How the results depend on the processing

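None of the log2 fold changes of the 32 single-gene results reversed under any alternative run. Of the Hox counts, HET against WT at 48 h was 2 with the replicate block, where 12.3% of all genes passed. It was 3 with the block by number over all times, which was chosen after seeing the data. At all 3 times the labels link cultures by a replicate number only. With the block WT at 24 h against 12 h had 2 Hox genes, and HET at 48 h against 12 h had 8, or 12 with the block by number. In all, 14 of 18 cultures correlated best with the culture of the other genotype that had their number. HET at 48 h against 12 h had 3 with the adjusted columns and 3 with quantile scaling, and HET at 24 h against 12 h had 2 with quantile scaling and 2 with the removed directions as covariates. Leaving out 1 culture gave 10 to 20 Hox genes for WT at 48 h, 0 to 13 for HET at 48 h, 0 to 5 for HET at 24 h and 0 to 1 for WT at 24 h, each against 12 h, and 0 to 1 for HET against WT at 48 h. The other genotype comparisons stayed at 0 without any 1 culture. The share of all genes moved in such runs too. For HET at 48 h against 12 h it was 28.4% without HET replicate 3 of 48 h and 0% without replicate 1 or 2 of 48 h. Shares for the other block, scaling and covariate runs are not given here, so their Hox counts cannot be set against a background. Among single genes, Hoxa4 in WT (adjusted p 0.0772 in limma with quantile scaling) and Hoxc4, Hoxb7, Hoxa5 and Hoxd8 in HET lost their call under a scaling or covariate (10 values, with 182 keeping their side). Leaving out 1 culture ended 58 single-gene calls and added 4, with 514 keeping their side, and the 2 forms of the block together added 6, with 58 keeping theirs. The cause was not tested. With 3 cultures a group and unknown depth, differences of low genes such as Hoxa11 and Hoxd13 are the least certain.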
